A study of Mus musculus with 20 samples.

Results

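The genes described here are the 10 transcripts Mrc1, Cd163, Lyve1, Stab1, Cd209f, F13a1, Ms4a7, Lyz2, Cd14 and Ccr2, which mark macrophages along the vessels and borders of the brain and monocytes of the blood. Their members were chosen by name: every non-control probe of the array that carries one of these names was taken, which gave 11 probes of 39429, since F13a1 has 2 probes. They were measured in RNA from the prefrontal cortex of male Swiss-Webster mice on dual-colour Agilent mouse arrays, where RNA of stressed mice and RNA of control mice lie on the same array. Stressed mice met groups of unfamiliar males, either in 1 session of 15 min (acute stress) or over 8 or 13 days in sessions of 10 min after the first, 2 to 3 per day. A last stressed group had 13 days of encounters and then 5 days of rest (recovery). Each stressed group had control mice of its own. Stressed and control mice alike were housed alone from 12 weeks of age and habituated for 22 days, and brains of the other groups were taken 24 h after the last encounter. Stressed mice and controls lived in different, neighbouring rooms throughout, so that room and stress cannot be told apart in the ratios. Each RNA pool came from 3 mice, with siblings paired between the stress and the control pool, and each time point had 3 pairs of pools and 5 arrays, because pools 2 and 3 were hybridised again with the dyes exchanged and pool 1 was read from 1 array with stress in Cy5. The pool number went with the slide and the scan day, pool 1 on slide 1, pool 2 on slides 2 and 3, and pool 3 on slides 4 and 5, which were scanned on day 2, and each of the 5 slides held 1 array of each time point. The tissue was a slice of 1 mm from the frontal pole, and perfusion is not described in the methods, so blood cells in vessels belong to the measured tissue.

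Macrophages of the brain borders sit between vessel walls and the brain tissue, take up proteins and debris from the fluid there, and differ from microglia, which lie in the tissue itself. They carry scavenger and lectin receptors on their surface, among them the mannose receptor CD206 (Mrc1), the hemoglobin-haptoglobin receptor CD163 and the hyaluronan receptor LYVE-1. Monocytes circulate in the blood, follow chemokines through CCR2, and can become macrophages after they enter a tissue.

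In these samples, most of the border macrophage genes were detected, while Cd163 was not and Ccr2 hardly was. Signals of Mrc1, Stab1, Cd209f, Ms4a7, Cd14 and 1 probe of F13a1 were well above background in both the stress and the control channel on 20 of 20 arrays. The signal of Lyz2 was well above background in the stress channel on 20 arrays and in the control channel on 17. For Lyve1 these numbers were 17 and 10. Its detection went with the dye, since it was above background in red on 20 arrays and in green on 7, and stress was in red on 12 arrays and in green on 8. Lyz2 was above background in red on 20 arrays and in green on 17. Cd163, a defining gene of border macrophages, was well above background on 0 of 20 arrays, and so was the second probe of F13a1. Ccr2, the chemokine receptor that defines inflammatory monocytes, was above background in the stress channel of 1 array, in recovery, and in the control channel of 0 arrays. The transcripts of Cd163 and Ccr2 thus have only an upper bound here, and their ratios, which enter the counts over 11 probes and the medians and mean over 10 genes, are not read one by one. In bulk tissue, fewer cells of a type and less RNA per cell cannot be told apart.

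**Figure D1:**
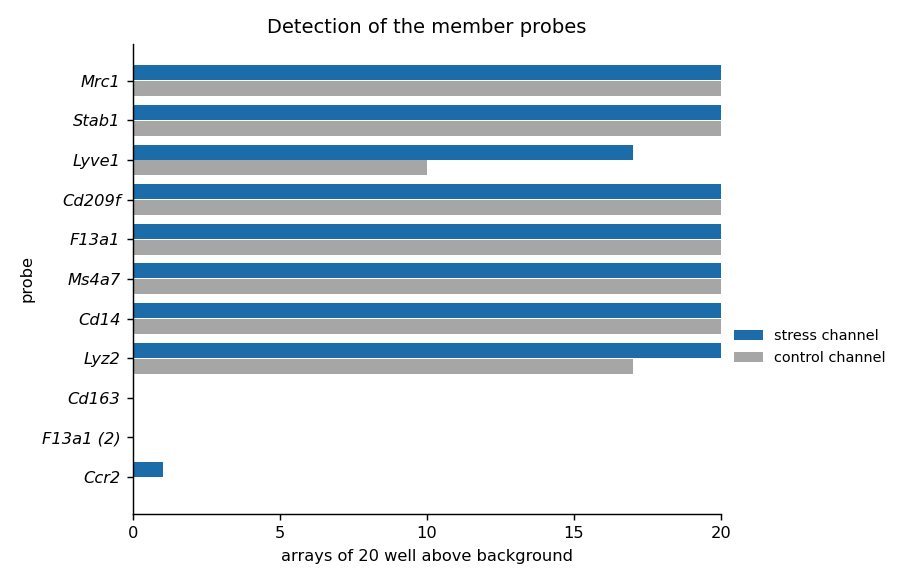
Number of arrays, of 20, on which each member probe was well above background (horizontal axis), in the stress channel (blue) and the control channel (grey), with F13a1 (2) the second probe of that gene. Cd163 and the second F13a1 probe were above background on 0 arrays, and Lyve1 on 17 in the stress and 10 in the control channel.

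The probes of 3 members are shown, and whether their sequence bears on detection was not tested. The Lyz2 probe lies on mm9, chromosome 10, 116719175 to 116719234, on the minus strand, beside the near-identical paralog Lyz1, which has a probe of its own, so that RNA of one lysozyme may bind the probe of the other. The F13a1 probe that was not detected lies on chromosome 13, 37063829 to 37063888, and the detected probe lies 104615 bases nearer to the 3′ end of the gene. The Cd163 probe, on the plus strand of chromosome 6, 124270436 to 124270495, was not detected. Each of the 3 sequences has at least 1 reading frame with no stop codon over the 60 bases, and they are printed whole with no part marked.
Lyz2: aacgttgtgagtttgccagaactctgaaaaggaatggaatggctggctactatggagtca
F13a1, the probe not detected: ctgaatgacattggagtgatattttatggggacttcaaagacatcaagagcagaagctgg
Cd163: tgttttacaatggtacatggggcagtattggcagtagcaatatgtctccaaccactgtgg

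Ratios were made from the scanned spot intensities. The local background was modelled by normexp, an offset of 50 was added, and arrays were normalized within and between each other. On 8 of the 20 arrays, in 6 of the 12 pools, 3 to 23 spots had a local background far brighter than the spot. With these spots in the fit of the background, the log2 ratios of a whole array were pressed towards 0: the median absolute deviation of the ratios was 0.0041 to 0.077 on these 8 arrays and 0.117 to 0.167 on the other 12, 1 of which also had 3 such spots. Those spots were therefore left out of the fit, which gave 0.121 to 0.167 on all 20 arrays. This was decided after the members' values under the first fit had been seen. No spot of a member was among those left out, and 0 of 11 member probes were called at any time point under either fit. The values below come from the fit without these spots, and those of the first fit are given beside some of them.

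**Figure D2:**
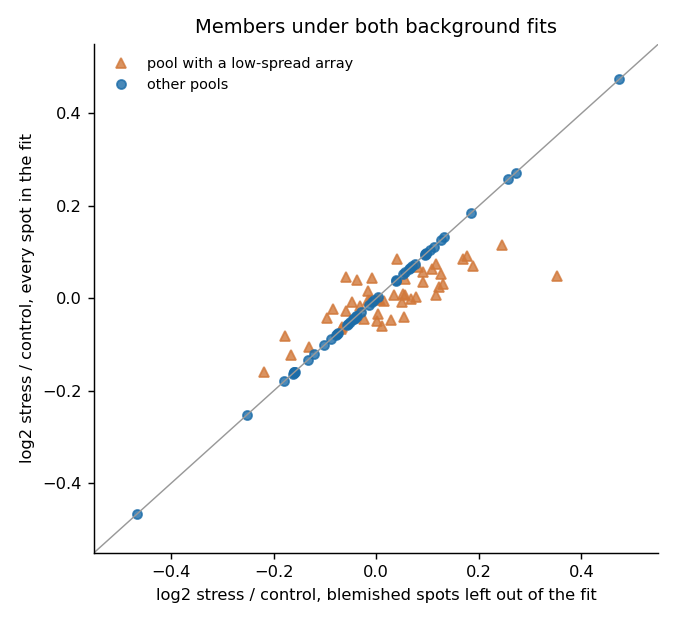
Log2 ratio of stress over control of the 8 measured member probes in each of the 12 pools, with bright-background (blemished) spots left out of the background fit (horizontal axis) against every spot in the fit (vertical axis), where triangles are pools with an array of low spread and circles are other pools. Circles lie on the diagonal, and many triangles lie nearer to 0 on the vertical axis, as Lyz2 in pool 3 after 8 days does (0.35 against 0.048).

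The first question was whether stress changed these genes at any time point. A probe was called in limma where its p, adjusted by Benjamini-Hochberg across every probe of the array, was under 0.05 and its log2 ratio was over 0.5 in size. On this rule 0 of the 11 member probes were called after acute stress, where 0.00507% of all probes were called, and 0 were called after 8 days, where 0.00254% of all probes were called. After 13 days, 0 of 11 were called, against 0.0279% of all probes. In recovery, 0 of 11 were called, and so were 0% of all probes. At an unadjusted p under 0.05 there were 3 member probes after acute stress (6.30% of all probes), 0 at 8 days (4.20%), 4 at 13 days (8.58%) and 0 in recovery (3.95%). Of these, 1 acute probe was Ccr2 and 1 13-day probe was Cd163, both not detected, so that 2 of the 8 measured probes in the acute group and 3 of 8 at 13 days remain. The lowest adjusted p of a measured member was 0.556 in the acute group, 0.99 at 8 days, 0.347 at 13 days and 0.992 in recovery.

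The 95% intervals of the fit for the 8 measured probes hold at the offset of 50. Each interval takes its SE from the spread over all time points, not from 1 time point alone. They ran from -0.31 to 0.16 after acute stress, from -0.17 to 0.27 after 8 days, from -0.16 to 0.38 after 13 days and from -0.34 to 0.17 in recovery, over all 8 probes. No interval reached 0.5 in size with the offset of 50. With an offset of 0, Lyve1 after 13 days was 0.47 (SE 0.13), against 0.18 at the offset of 50. Lyz2 was 0.17 (SE 0.21), against 0.075. Both intervals passed 0.5 at the offset of 0, so that those at 50 do not bound the change of these probes. As folds, the ends at the offset of 50 are 0.809 to 1.12, 0.892 to 1.21, 0.898 to 1.30 and 0.793 to 1.12 times control. The median of the 8 was -0.063, 0.059, 0.083 and -0.0073 in the same order, where the median over all probes was 0.0019, 0.0033, 0.0023 and 0.0037.

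**Figure D3:**
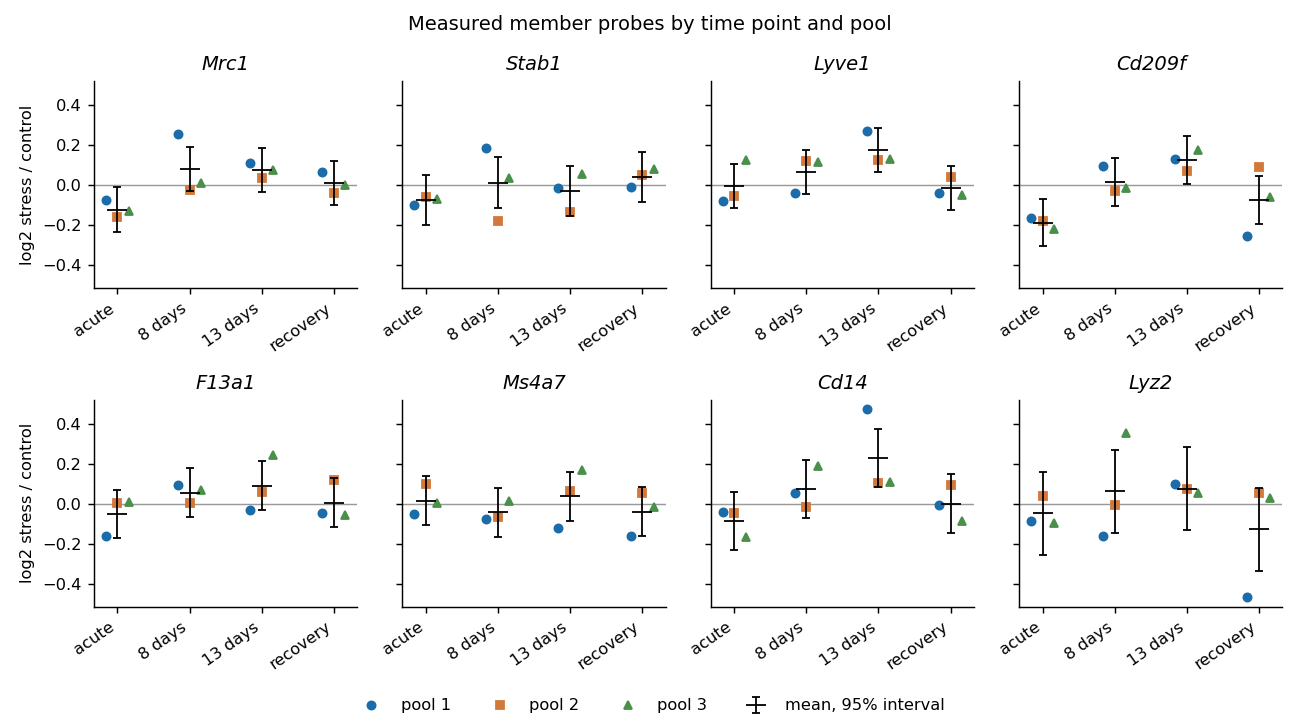
The 8 measured member probes at the 4 time points (horizontal axis), as log2 of stress over control (vertical axis), with 1 symbol for each pool and a bar for the mean and its 95% interval from limma. Cd209f lies below 0 in 3 pools after acute stress and above 0 in 3 pools after 13 days, and pool 1 of Cd14 after 13 days lies at 0.47.

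Mrc1 encodes the mannose receptor, which takes up glycoproteins and is a common marker of border macrophages. Its log2 ratios were -0.074, -0.16 and -0.13 in pools 1 to 3 after acute stress, 0.26, -0.023 and 0.011 after 8 days, 0.11, 0.038 and 0.078 after 13 days and 0.067, -0.037 and 0.0019 in recovery. All 3 pools were thus below 0 after acute stress and all 3 above 0 after 13 days (pool 3 at 0.0031 with every spot in the background fit). These signs are of pool averages, and the original and the exchanged array of Mrc1 often differed in sign. They gave -0.33 and 0.072 in pool 3 after acute stress, and -0.037 and 0.11 in pool 2 after 13 days. The mean after 8 days rests on pool 1. The mean was -0.12 (SE 0.051, limma adjusted p = 0.748) after acute stress and 0.076 (SE 0.051, adjusted p = 0.717) after 13 days, n = 3 pools each. The normalized log2 level averaged 7.98 ± 0.13 in stressed and 8.11 ± 0.11 in control mice after acute stress, and 8.06 ± 0.13 in stressed and 7.98 ± 0.11 in control mice after 13 days (SD, n = 3 pools), so that the groups overlapped in level at both times.

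Stab1 encodes stabilin-1, a scavenger receptor that clears modified lipoproteins and apoptotic cells. Its log2 ratios were -0.10, -0.058 and -0.069 in the pools after acute stress, and they lay on both sides of 0 at each later time point, most widely after 8 days, with 0.18, -0.18 and 0.036. The mean was -0.076 (SE 0.058, adjusted p = 0.906) after acute stress and between -0.030 and 0.042 at the other 3 time points. With arrays centred on their median in place of loess, the acute value was 0.0285, so that its direction depends on the normalization.

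Lyve1 encodes a hyaluronan receptor of lymphatic endothelium and of border macrophages. Its ratios after 13 days were 0.27, 0.13 and 0.13 in the pools, above 0 in each, with a mean of 0.18 (SE 0.051, 95% interval 0.065 to 0.29, adjusted p = 0.347), the lowest adjusted p of the members. They were -0.077, -0.056 and 0.13 after acute stress, -0.039, 0.12 and 0.12 after 8 days and -0.038, 0.040 and -0.048 in recovery, on both sides of 0 each time. At 13 days, its spot was above background in the stress channel on 5 of 5 arrays and in the control channel on 3 of 5. The value after 13 days was 0.14 with every spot in the background fit, -0.038 with median centring and 0.88 with Feature Extraction's own ratio. With a dye coefficient it was 0.15 (limma adjusted p = 0.205). Original and exchanged arrays after 13 days gave 0.17 and 0.079 in pool 2 and 0.19 and 0.068 in pool 3. Pool 1 has no exchanged array, and over the 8 pools with both the original exceeded the exchanged array by a mean of 0.14.

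Cd209f encodes a C-type lectin of the DC-SIGN family, found on border macrophages of the mouse. Its log2 ratios after acute stress were -0.16, -0.18 and -0.22, and those after 13 days were 0.13, 0.071 and 0.18. It was thus lower than control in 3 of 3 pools after acute stress and higher in 3 of 3 after 13 days, with pools 2 and 3 near 0 after 8 days (-0.031 and -0.013, with 0.095 in pool 1) and pools on both sides of 0 in recovery (-0.25, 0.091 and -0.059). The mean after acute stress was -0.19 (SE 0.055, 95% interval -0.31 to -0.069, adjusted p = 0.556), and after 13 days it was 0.13 (SE 0.055, 95% interval 0.0080 to 0.25, adjusted p = 0.555). Its normalized log2 level averaged 7.68 ± 0.18 in stressed and 7.87 ± 0.19 in control mice after acute stress, and 7.99 ± 0.030 in stressed and 7.87 ± 0.038 in control mice after 13 days (SD, n = 3 pools). After acute stress, the stressed and the control pools overlapped in level. By pool, the levels after 13 days were 7.97, 7.98 and 8.03 in stressed and 7.84, 7.91 and 7.85 in control mice.

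F13a1 encodes the A subunit of coagulation factor XIII, which crosslinks fibrin and is made by tissue macrophages and monocytes. Its detected probe had log2 ratios of -0.16, 0.0029 and 0.0068 after acute stress, 0.095, 0.0045 and 0.068 after 8 days, -0.030, 0.057 and 0.25 after 13 days and -0.044, 0.12 and -0.058 in recovery. Only after 8 days did the 3 pools share a direction, with a mean of 0.056 (SE 0.056, adjusted p = 0.99). With every spot in the background fit, the F13a1 pools after 8 days were 0.095, -0.034 and -0.0023, with a mean of 0.020 and no shared direction, and without pool 1 of 8 days the mean was 0.036.

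Ms4a7 encodes a membrane protein of the MS4A family that sets border macrophages apart from microglia. Its ratios lay on both sides of 0 at each time point, with means of 0.016 in the acute group, -0.043 at 8 days, 0.038 at 13 days and -0.040 in recovery (SE 0.057 each). It was the only measured member whose mean after acute stress lay above 0.

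Lyz2 encodes lysozyme, a secreted enzyme of macrophages, monocytes and neutrophils that breaks bacterial cell walls. After 13 days its log2 ratios were 0.097, 0.075 and 0.052, close to each other, with a mean of 0.075 (SE 0.096, adjusted p = 0.878), and -0.064 with median centring. The SE comes from the spread over all time points, and the pools differed most in recovery, with -0.47, 0.055 and 0.029, and after 8 days, with -0.16, -0.0079 and 0.35. In pool 3 after 8 days, the value was 0.35 here and 0.048 with every spot in the background fit.

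Cd14 encodes the coreceptor through which TLR4 senses bacterial lipopolysaccharide, and it lies on chromosome 18. Its ratios after 13 days were 0.47, 0.10 and 0.11, above 0 in each pool, with the largest mean of the members, 0.23 (1.17-fold, SE 0.068, 95% interval 0.084 to 0.38, adjusted p = 0.359). Pool 1 carries much of this value: without pool 1 of the 13-day group, it was 0.11. Pool 1 has a single array, and fits of the 20 arrays singly, in which pool 1 weighs 1 array of 5, gave 0.18 both with a dye coefficient (adjusted p = 0.174) and with slide as a block (adjusted p = 0.138), with 0.138 to 1 over all alternatives. After acute stress Cd14 was at -0.042, -0.045 and -0.17, below 0 in 3 pools, with a mean of -0.085 (SE 0.068, adjusted p = 0.907), which was -0.043 without pool 3 of the acute group and -0.029 with median centring, and after 8 days and in recovery its pools lay on both sides of 0. The normalized log2 level of Cd14 after 13 days was 8.16, 7.63 and 7.78 in the stressed pools and 7.68, 7.53 and 7.67 in the control pools.

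Of the 3 remaining probes, the ratios of Cd163 and of the second F13a1 probe at all 4 time points and of Ccr2 at 3 were measured on spots not well above background in either channel, and single pools gave values between -0.26 and 0.26. In recovery, where Ccr2 was above background on 1 of 5 arrays in the stress channel and on 0 in the control channel, no fold is given. These ratios say nothing about the level of the receptor.

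Read by direction, 7 of the 8 measured members lay below 0 in the mean after acute stress, 4 of the 8 in all 3 pools (Mrc1, Stab1, Cd209f and Cd14, of which Stab1 turns above 0 in the mean with median centring), where 14.2% of all probes and 12.9% of the probes well above background on all arrays did so. After 13 days, 7 of the 8 lay above 0 in the mean and 5 of the 8 in all 3 pools (Mrc1, Lyve1, Cd209f, Lyz2 and Cd14, of which Lyve1 and Lyz2 turn below 0 in the mean with median centring), where 17.8% of all probes and 21.5% of those well above background on all arrays did. After 8 days, 1 of 8 was above 0 in all 3 pools, beside 11.7% of all probes, and 0 of 8 were below 0 in all 3, beside 10.7% of all probes and 9.84% of those well above background. In recovery, 0 of 8 were above 0 in all 3 pools, beside 11.6%, and 0 below, beside 11.4%. The median over the 8 was -0.083, -0.050 and -0.082 in pools 1 to 3 after acute stress and 0.10, 0.068 and 0.12 after 13 days. These genes share cells, RNA pools and arrays, so that they are not independent of each other.

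The second question was whether the response differed between time points. With limma over all probes, 0 of 11 member probes passed the threshold for 13 days minus acute stress (0.0152% of all probes passed), 0 for 8 days minus acute stress (0.00254%), 0 for 13 days minus 8 days (0%) and 0 for recovery minus 13 days (0%). At an unadjusted p under 0.05 there were 4 member probes for 13 days minus acute stress (5.99% of all probes), 2 for 8 days minus acute stress (3.38%), 0 for 13 days minus 8 days (2.42%) and 4 for recovery minus 13 days (5.10%), of which 1 was Cd163, not detected. For 13 days minus acute stress, all 8 measured differences were above 0, with a median of 0.16, and the pools of 4 of the 8 (Mrc1, Cd209f, Cd14 and Lyz2) did not overlap, beside 13.6% of all probes. The pools of 3 of 8 did not overlap for 8 days minus acute stress (8.09%), of 1 of 8 for 13 days minus 8 days (7.34%) and of 2 of 8 for recovery minus 13 days (10.6%). These differences share time points. The acute and the 13-day mice had separate controls.

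The difference between 13 days and acute stress was 0.31 for Cd209f (SE 0.078, 95% interval 0.15 to 0.48, limma adjusted p = 0.402), 0.31 for Cd14 (SE 0.096, 0.11 to 0.52, adjusted p = 0.605, and 0.19 without pool 1 of 13 days) and 0.20 for Mrc1 (SE 0.072, 0.041 to 0.35, adjusted p = 0.757). Fitted on the 20 arrays singly, with a dye coefficient, the difference of Cd209f was 0.32 with a limma adjusted p of 0.0403, below the threshold of 0.5 in size. The correlation between arrays of a pool was estimated at -0.043 in that fit, so that dye swaps counted as nearly independent, and over all alternatives the adjusted p ran from 0.0403 to 1. With slide as a block it was 0.32 (adjusted p = 0.0527), and with the pool number, which stands for slide and scan day, as a block 0.31 (adjusted p = 0.288). With every spot in the background fit it was 0.27 (adjusted p = 0.696). Between recovery and 13 days, Cd14 differed by -0.23 (SE 0.096, adjusted p = 0.97, and -0.11 without pool 1 of 13 days), Lyve1 by -0.19 (SE 0.073, adjusted p = 0.97) and Cd209f by -0.20 (SE 0.078, adjusted p = 0.97).

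**Figure D4:**
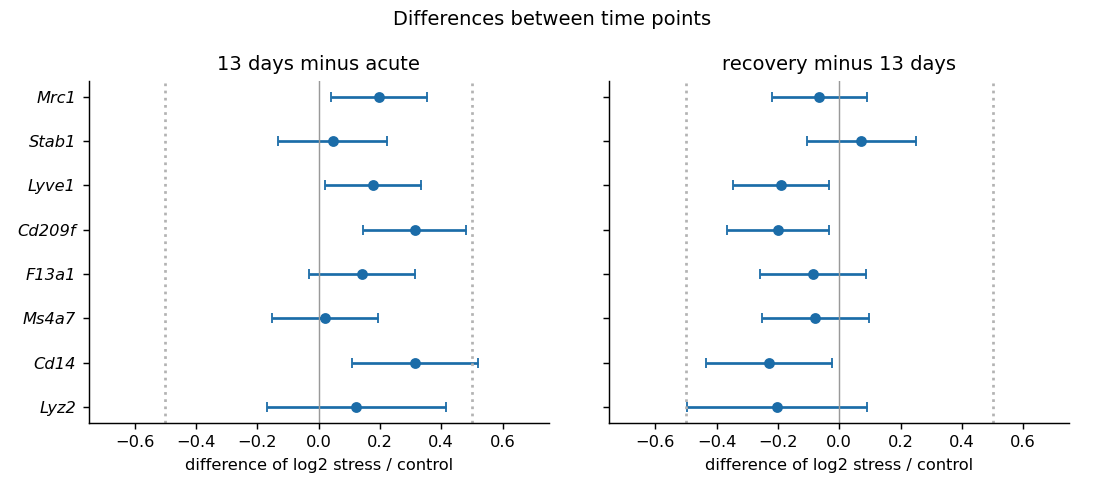
Difference of the log2 ratio between time points (horizontal axis) for the 8 measured member probes, with 95% intervals from limma, for 13 days minus acute stress on the left and recovery minus 13 days on the right, and dotted lines at 0.5 in size. All 8 points lie above 0 on the left, with Cd209f and Cd14 at 0.31, and 7 of 8 lie below 0 on the right.

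The technical spread of a single pool was read from the dye swaps. Over the 8 pools that were hybridised with both dye orders, the original and the exchanged array, read the same way, differed by a median of 0.099 for the 8 measured members and by up to 0.41, for Mrc1 in pool 3 after acute stress. The 2 arrays shared a sign in 40 of the 64 cases. By gene, both arrays had the same sign in 7 of 8 pools for Cd14, in 6 of 8 for Cd209f, Stab1 and Lyve1, in 5 for Ms4a7, in 4 for F13a1 and Lyz2 and in 2 of 8 for Mrc1.

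**Figure D5:**
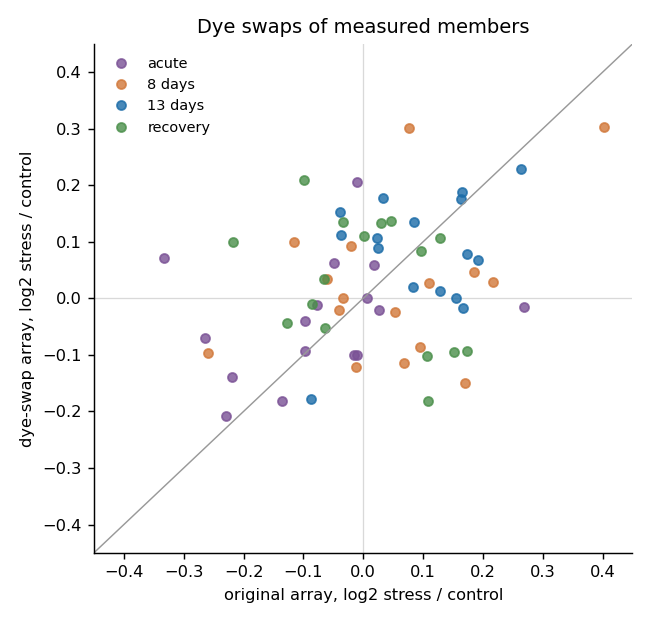
Log2 ratio of stress over control of the 8 measured member probes on the original array (horizontal axis) and on the array with exchanged dyes (vertical axis), for pools 2 and 3 of the 4 time points (colours), with the line of equality. The 64 points scatter around the line by a median of 0.099, and 40 of them have the same sign on both arrays.

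Among themselves, the members moved together only in part. Over the 12 pools, the 28 pairs of measured members had a median Pearson r of 0.35, from -0.34 for Mrc1 with Ms4a7 to 0.67 for Cd209f with Cd14, and 23 were above 0. These correlations are across pools that share arrays and time points and are given as a description. The 5 genes outside the list with the most similar pattern, by Pearson r over the 12 pools with the mean of the 10 members, were 2010107G23Rik (r = 0.945), Itgbl1 (0.913), Pthlh (0.889), Col1a2 (0.886) and Gmip (0.885), out of 18565 probes. That mean includes Cd163 and Ccr2. With the mean of the 8 measured probes, r of these 5 was 0.946, 0.865, 0.84, 0.809 and 0.927 in the same order, so that Gmip came second among them. Col1a2 encodes a chain of collagen I, and its log2 ratio was -0.53 in the acute group, 0.18 at 8 days, 0.14 at 13 days and 0.040 in recovery. None of the 5 was called at any time point.

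Other genes of macrophages and monocytes gave no call either. Of the 15 further border macrophage genes on the array, such as Pf4, Cbr2, Folr2 and Siglec1, 0 were called at any time point, with medians of 0.037, 0.036, 0.065 and 0.034 in the order of the time points. Of 11 further monocyte genes 0 were called, and their median was -0.10 after acute stress, where 4 had an unadjusted p under 0.05, and 0.025, 0.030 and 0.039 later. The list of chemokines and CSF1 partners, with the CCR2 ligands Ccl2, Ccl7 and Ccl12, had 6 genes on the array, of which 0 were called, and medians of -0.058, -0.023, 0.080 and -0.075. The partners of CD14 in lipopolysaccharide sensing, with Tlr4, Ly96 and Myd88, had 6, of which 0 were called, and medians of -0.043, 0.0034, 0.049 and 0.017. The 9 genes of hemoglobin and heme uptake, heme breakdown and iron handling, such as Hp, Hpx and Hmox1, had 0 called and medians of 0.015, 0.0042, 0.0046 and -0.0065. For microglia, 0 of 12 genes were called, with medians between -0.052 and 0.042, and for genes of all macrophages 0 of 11, with medians between -0.025 and 0.072.

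Markers of other cells were read in the same samples, and of these only red cell genes and Mgp were called. Of 6 red cell genes, 6 were called higher after 13 days, namely Hbb-b1 (log2 ratio 1.60), Beta-s (1.57), Hbb-b2 (1.48), Hba-a2 (1.34), Hba-a1 (1.29) and Alas2, the enzyme that starts heme synthesis in red cells (1.15), with a median log2 ratio of 1.41 and a summed intensity of 146000 to 216300 in the stressed pools and 58620 to 78120 in the control pools, and 0 of the 6 were dim. After 8 days the red cell median was 0.70, and 6 of 6 lay above 0. All 6 had an unadjusted limma p under 0.05 at that time, and 0 were called. The red cell median was -0.042 after acute stress and 0.24 in recovery. Of 11 genes of meningeal fibroblasts, 11 lay below 0 after acute stress, with 0 called, a median of -0.23 and a summed intensity of 7470 to 7838 in the stressed pools and 8943 to 10130 in the control pools. After 13 days, the fibroblast median was 0.14 and the sum was 9041 to 11070 in the stressed and 7381 to 9235 in the control pools, and Mgp, an inhibitor of calcification, was called both after 8 days (0.74, SE 0.080, adjusted p = 0.0156) and after 13 days (0.88, SE 0.080, adjusted p = 0.00102). After 8 days the fibroblast median was 0.12, with 11 of 11 above 0, and in recovery it was 0.090, with 10 of 11 above 0. The fibroblast markers and the measured members thus had medians of the same sign at the first 3 time points, and 0 of the 11 fibroblast markers were dim. This was not particular to fibroblasts, since it also held for red cell, endothelial, choroid plexus and further monocyte genes and for the CD14 partners. It did not hold for the other lists, among them the further border macrophage genes, whose median after acute stress was 0.037. In recovery the sign of the member median was not settled, at -0.0073 over the 8 measured probes and 0.0029 over the 10 genes. The 7 endothelial genes had medians of -0.030, 0.080, 0.042 and 0.0052 in the order of the time points, with 0 called. The 5 choroid plexus genes had medians of -0.059, 0.12, 0.099 and 0.015 in the order of the time points, with 0 called and 0 dim, and a summed intensity after 13 days of 780.9 to 861.3 in the stressed and 705.8 to 777 in the control pools. The part of these cells in the members' values was not tested. Neutrophil genes had a median of -0.61 after acute stress, with 0 of 9 called and a summed intensity of 1474 to 1985 in the stressed pools and 1413 to 12040 in the control pools. Genes of cortical neurons were measured in 6 of 6 cases, with medians of 0.024, 0.032, 0.066 and 0.037, 0 called, and 6 of 6 above 0 after 13 days. Of the 5 olfactory bulb genes on the array, 0 were called and Eomes was dim after 8 days and in recovery, with medians of -0.063, 0.00014, -0.11 and -0.0058, and 5 of 5 lay below 0 after 13 days.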

How the data were processed

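The authors scanned the arrays with Agilent Feature Extraction 10.10.1.1. Their deposited tables give, for each spot and colour, the mean intensity and local background, not normalized, a log10 ratio of red over green, and marks for outlier, saturated, control and well-above-background spots. The deposited value matrix of the authors holds a log2 ratio of stress over control, already turned on dye swaps; on the 8 arrays named in the report its spread was low too (median absolute deviation 0.012 to 0.095, and 0.179 to 0.325 on the other 12). Positions are those of the tables, build mm9.

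Intensities were background-corrected in limma 3.58.1 (R 4.3.3, statmod 1.5.0) using normexp, offset 50. Its parameters were fitted without spots whose intensity lay more than 50 below the local background, which is a change from limma's default made after the default's values had been seen. Loess within arrays (weight 0 for control and outlier spots) and Aquantile between arrays followed. Outlier spots (0.314% to 0.73% of an array) and the spots left out were set to missing, and 43020 spots were averaged to 39429 probes. Ratios were turned to stress over control and dye swaps averaged, which gave 12 pools. Each time point had its own coefficient in limma's fit (prior degrees of freedom 5.29), with Benjamini-Hochberg adjustment over all probes, an adjusted p under 0.05 and a size over 0.5. The steps were tested on simulated data. P-values measure the spread between pools. On an array, 70.5% to 74.4% of the probes exceeded background clearly in a channel, 0 spots were saturated, the median intensity ranged over 78.9 to 142 (green) and 153 to 233 (red), and the number of arrays limits the precision.

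All members were named. Of other lists, only called genes are given with values, and other names show what a list holds or which gene was dim. Lists keep 1 probe per gene, the brightest. The members and lists were chosen with earlier results of these data known. Alternatives changed the background correction, normalization, source of ratios, dim-probe filter, dye, slide, pool block, variance moderation and threshold, and left out each pool.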

Additional observations from a re-analysis of the deposited data

Results flagged for a closer look

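Mrc1, Cd209f and Cd14 lay below 0 in all 3 pools after acute stress and above 0 in all 3 pools after 13 days. The differences, 13 days minus acute stress, were 0.197 for Mrc1, 0.314 for Cd209f and 0.314 for Cd14 on the log2 scale. limma's test of each difference did not pass over all probes, with adjusted p of 0.757, 0.402 and 0.605, and the acute and the 13-day pools are separate mice. Without pool 1 of 13 days, the Cd14 difference was 0.19. For Mrc1, the original and the exchanged array shared a sign in 2 of the 8 pools that had both, so that its pool signs rest on averages of arrays that disagreed. Opposite directions in 3 against 3 pools were the reason for a closer look, and 8 probes were looked at over 6 pairs of time points.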

How the results depend on the processing

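Over 27 alternatives, 0 member probes were called at any time point or for any difference, while calls among all probes after 13 days, 11 as reported, were 0 with an offset of 0, median centring or the authors' values, 3 with Feature Extraction's ratio, 6 to 7 without a 13-day pool, 21 in each fit of 20 arrays and 75 on original arrays alone, where the acute, 8-day and recovery calls were 82, 92 and 91 (2, 1 and 0 as reported). Of the median over the 10 members, the acute value, -0.063, was -0.097 at offset 0, -0.092 under median centring, -0.11 with Feature Extraction's ratio and -0.10 in the authors' value table, and -0.089 to -0.049 with a pool left out. The 8-day median, 0.049, was -0.014 to 0.075 with a pool left out, and -0.014 without pool 1 of 8 days. The 13-day median, 0.075, was 0.13 with an offset of 0 and 0.049 with every spot in the normexp fit, and the recovery median, 0.0029, was -0.044 to 0.019 with a pool left out. Of the values recomputed, those of single probes whose 3 pools shared a sign, 4 changed sign with median centring. They were Lyve1 after 13 days (-0.038), Stab1 after acute stress (0.0285), Lyz2 after 13 days (-0.064) and Ccr2 in recovery (-0.15). The Ccr2 spot in recovery was above background on 1 of 5 arrays in the stress channel and on 0 in the control channel. Its change of sign is therefore listed but not read as a direction. The recovery median over the members was -0.012 with median centring. The cause of these shifts was not tested. Deviations of same-numbered pools correlated by -0.085 to 0.458. Most pairs exceeded 0.1, with 5 of 6 for pool 1, 4 of 6 for pool 2 and 4 of 6 for pool 3. Since not every pair did, the numbers were not taken as pairs, although a number stands for a slide and scan day. With the pool number as a replicate block, 0 of 11 members were called, with a lowest member adjusted p of 0.174 after 13 days (0.347 without the block) and 0.275 after acute stress (0.556 without). Among all probes, the block gave 14 calls after 13 days (11 without), 3 for 8 days minus acute stress (1 without), 9 for 13 days minus acute stress (6 without) and 1 for recovery minus 13 days (0 without). The dim-probe filter left 8 member probes, with a lowest adjusted p of 0.263. Leaving spots out of the normexp fit at 100 instead of 50 gave 0 member calls and 11 calls among all probes after 13 days, and with every spot in the fit there were 0 and 9; both were added after seeing the data.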
